A study of Homo sapiens with 8 samples.

Results

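The 32 genes described here encode the glucose carriers, the enzymes of glycolysis, the kinases that restrain pyruvate dehydrogenase, and the pentose phosphate enzymes. They were taken by gene symbol from a fixed list, each was followed by the brightest probe set that the platform annotation gives to that gene alone, and all 32 had such a probe set among the 19775 genes measured in this way. Among the members ENO3, the enolase of muscle, was set against its paralogs ENO1, the enolase of most tissues, and ENO2, the enolase of neurons.

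Glycolysis turns glucose into pyruvate and yields ATP on the way, and its rate is set mainly at glucose uptake, hexokinase, phosphofructokinase and pyruvate kinase. The pentose phosphate pathway branches off after hexokinase and supplies NADPH and ribose for nucleotides. Many of these steps are shared out among isoenzymes from separate genes, which differ in the tissues where they are used, and dividing leukemia cells are known for a high glycolytic rate.

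The cells were Kasumi-1, an acute myeloid leukemia line that carries the AML-ETO fusion. All groups were electroporated with in vitro transcribed RNA (IVT-RNA), and total RNA was taken 6 h later. The IVT-RNA encoded GFP in the control (3 arrays), wild type NR4A1 (NR4A1 WT, 3 arrays), or NR4A1 with a mutated DNA binding domain (NR4A1 CEAA, 2 arrays). NR4A1 is an orphan nuclear receptor that acts as a transcription factor, so the comparisons ask which transcripts change with it and whether that needs its DNA binding domain. This is 1 cell line with a short pulse of introduced RNA, and each group bears the electroporation.

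Values are log2 intensities after Robust Multiarray Analysis (RMA), and a difference of 1 on this scale is a 2-fold change in intensity. A gene was counted as higher or lower where limma gave an adjusted p under 0.05 over all 19775 genes. Differences between arrays of the same group had an SD of 0.147 to 0.208 across genes, against 0.319 to 0.341 between GFP and NR4A1 WT, 0.248 to 0.275 between GFP and NR4A1 CEAA, and 0.358 to 0.409 between the NR4A1 forms. All 8 measured Kasumi-1 markers, among them RUNX1T1, KIT and MPO, lay above the array median in every array. Of 14 markers of other cell types, 7 lay under that median in every array, while 5 lay above it in all 8, namely EPCAM (11.43 to 11.86), COL1A1 (7.27 to 7.61), DCN (5.27 to 6.01), CD79A (5.11 to 5.62) and CD3D (5.04 to 5.38). Of the 14, EPCAM was lower after NR4A1 WT and none passed the test after NR4A1 CEAA. The 3 probe sets of NR4A1 itself read 5.06 to 6.66, and the brightest did not pass the test (limma, adjusted p = 0.572 for NR4A1 WT and 0.575 for NR4A1 CEAA against GFP). Where they lie relative to the sequence in the IVT-RNA was not known, so they check nothing about the labels. Nothing in the sources says that replicate arrays came from separate cultures, so each p-value reflects no more than the spread among these samples, which may be technical. In such bulk samples fewer cells of a kind and less RNA per cell cannot be told apart. The array medians over all probe sets ran from 4.755 to 4.802, and 30 of the 32 genes lay above them in all arrays. HK3 did so in 2 of 8 arrays and ENO2 in 0, so HK3 and ENO2 are not shown to be above background.

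After NR4A1 WT a few members changed a lot and most did not pass the test. ENO3 rose 8.78-fold and PFKM, the phosphofructokinase of muscle, 3.97-fold. HK2, PDK1, PFKFB3, SLC2A1, PFKP and PFKFB4 fell, the first by 0.64 and the last by 0.24 on the log2 scale. Thus 2 of 32 members were higher, where 9.97% of all genes were, and 6 of 32 were lower, where 10.3% were. Among genes with a mean of at least 10, a limit set after seeing the data, 14.6% were higher and 16.3% lower, beside 0 and 2 of the 17 members that bright. The median log2 fold change was -0.06 over the members and 0.00 over all genes. In the 8 genes that passed, no array with NR4A1 WT overlapped an array with GFP. This does not set them apart, since some members that did not pass were also free of overlap. Those were HK1, GAPDH, PGK1, PGAM1, ENO1, LDHA, PDK3, PGD, RPIA, RPE and TKT. The share of all genes without overlap was not counted. By Rank Product, the rank-based test the study's methods name, 2 members were higher (ENO3 and PFKM; 2.24% of all genes) and 2 lower (HK2 and PDK1; 2.12% of all genes).

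After NR4A1 CEAA other members changed, and most of them downward by less than 2-fold. PGD, TPI1, PKM, ALDOC, GPI, ALDOA, GAPDH, SLC2A3, PGLS, PFKL, ENO1 and TALDO1 were lower than with GFP, and PDK1 and RPE were higher. These were 12 of 32 members lower, where 12.1% of all genes were, and 2 of 32 higher, where 7.14% were. The median log2 fold change was -0.14 over the members and -0.03 over all genes. Bright genes passed the test more often than all genes in this comparison. Among the 2167 genes with a mean of at least 10, 12.7% were higher and 26.3% lower, beside 0 and 8 of the 17 members that bright. Rank Product called 3 members lower (PGD, PKM and TPI1; 1.36% of all genes) and 0 higher (0.465% of all genes).

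PDK1 alone passed the test in both comparisons with GFP, in opposite directions. Its call with NR4A1 CEAA was lost by Rank Product (q = 0.235), with averaged probe sets (limma, adjusted p = 0.113) and without either NR4A1 CEAA array. With a filter on dim probe sets ENO1, GAPDH, PGD, RPE and SLC2A1 also passed in both, and with an intensity trend ENO1, GAPDH, PGD, RPE and PFKFB3 did. Both comparisons share the 3 GFP arrays. In neither of them did 11 members pass, namely HK1, HK3, PFKFB2, PGK1, PGAM1, ENO2, LDHA, LDHB, PDK3, RPIA and TKT. Members that did not pass had log2 fold changes of -0.16 to 0.18 with NR4A1 WT and of -0.19 to 0.23 with NR4A1 CEAA.

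**Figure D1:**
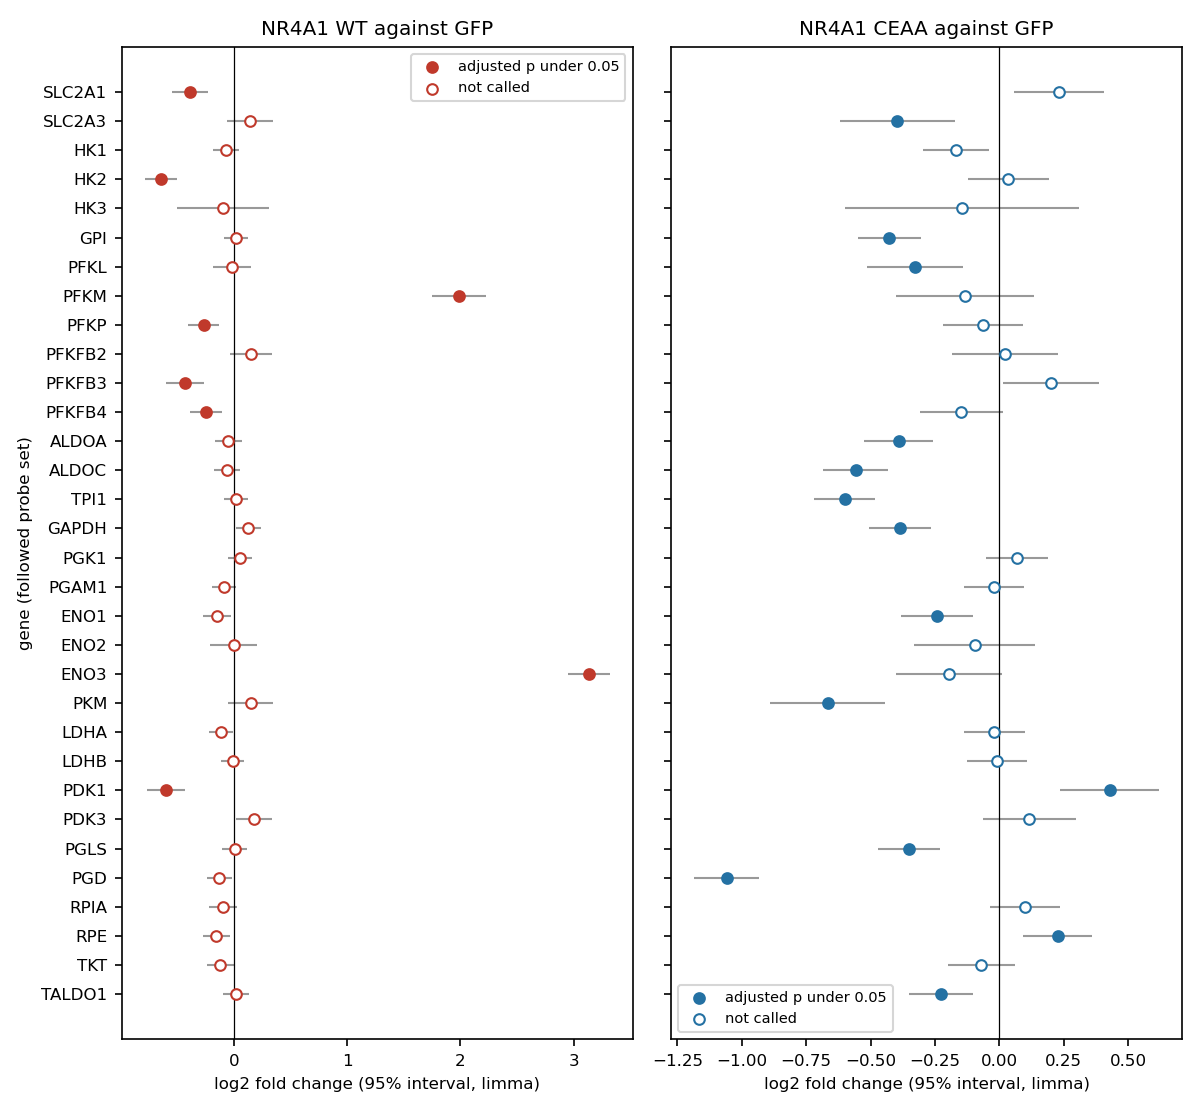
Log2 fold change of each of the 32 genes (rows, by role) for NR4A1 WT against GFP on the left and NR4A1 CEAA against GFP on the right, with separate horizontal scales. Points are limma estimates with 95% intervals, filled where the adjusted p was under 0.05. On the left ENO3 (3.13) and PFKM (1.99) stand apart from the rest, and on the right 12 filled points lie under 0, PGD lowest at -1.06.

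ENO3 gave the largest change of the list. It read 5.95, 5.88 and 6.13 with GFP, 9.04, 9.20 and 9.12 with NR4A1 WT, and 5.73 and 5.85 with NR4A1 CEAA. The 3 arrays with NR4A1 WT lay about 3 units above the other 5, with no overlap. Those other 5 lay in or near the range of DCN, a marker of other cells (5.27 to 6.01). ENO3 is thus not shown to be above background with GFP or NR4A1 CEAA. Against GFP the log2 fold change was 3.13 (SE 0.08, limma, adjusted p = 3.8e-07), and that between NR4A1 WT and NR4A1 CEAA was 3.33 (SE 0.09, limma, adjusted p = 8.6e-07), a 10.04-fold difference. NR4A1 CEAA against GFP gave -0.19 (95% interval -0.40 to 0.01, limma, adjusted p = 0.174). ENO3 has a second probe set of its own, at 3.34 to 4.09 in the 8 arrays. That set lay under the array medians and did not pass the test (log2 fold change 0.29 for NR4A1 WT against GFP, limma, adjusted p = 0.26 when adjusted over every probe set).

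The promoter window of ENO3 is shown because the transcript rose with the wild type receptor and did not pass the test with the form mutated in its DNA binding domain. NR4A receptors are known to bind the NBRE, spelled AAAGGTCA or, on the opposite strand, TGACCTTT. Of the windows that RefSeq gives for GRCh38.p14, from 250 bases before to 50 bases after a start, 1.22% of 35116 hold these letters on either strand, and 1.49% of 27305 genes have such a window. Windows were at hand for 30 of the 32 members (53 windows, not for SLC2A3 and PFKFB2), and the NBRE was found in 1 of them, 1 of the 2 windows of ENO3. The 250 bases before that start, on the plus strand at chr17:4950869-4951118, read as follows with the NBRE in capitals.
ENO3: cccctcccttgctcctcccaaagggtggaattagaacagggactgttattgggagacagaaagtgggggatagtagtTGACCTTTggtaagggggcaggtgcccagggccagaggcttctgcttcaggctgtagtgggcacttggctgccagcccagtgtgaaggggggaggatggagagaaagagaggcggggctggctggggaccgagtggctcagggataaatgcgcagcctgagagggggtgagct
The motif covers positions -173 to -166 from the start. The match describes the letters of this window, and receptor binding there was not measured in these data. By ChIP-seq the study reports reproducible NR4A1 binding over a known NR4A site in the proximal promoter of ENO3. The study places that site somewhat nearer to the start than this match lies. Whether this match is that site was not checked.

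ENO1 and ENO2 did not rise with ENO3. ENO1 read 13.19, 13.21 and 13.27 with GFP, 13.00, 13.12 and 13.10 with NR4A1 WT, and 12.95 and 13.00 with NR4A1 CEAA. The GFP arrays were the highest in each comparison, with no overlap. This was a log2 fold change of -0.15 for NR4A1 WT (limma, adjusted p = 0.0975) and -0.24 for NR4A1 CEAA (limma, adjusted p = 0.0264), and without any 1 array other than an NR4A1 WT one the latter did not pass (adjusted p up to 0.155). ENO2 read 3.71, 3.83 and 3.51 with GFP, 3.67, 3.76 and 3.61 with NR4A1 WT, and 3.50 and 3.67 with NR4A1 CEAA. Its groups overlapped in every comparison, and all 8 values lay under the array medians.

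The enolases were also compared within each array, as a difference of log2 values, which shows unequal change and not which transcript is more abundant. For ENO3 minus ENO1 the GFP arrays gave -7.24 ± 0.10 (SD, n = 3), the NR4A1 WT arrays -3.96 ± 0.03 (SD, n = 3), and the NR4A1 CEAA arrays -7.19 ± 0.05 (SD, n = 2). The gap thus shifted by 3.28 with NR4A1 WT against GFP and by 0.05 with NR4A1 CEAA against GFP. With NR4A1 WT no array overlapped the others, and the two-sided exact permutation p was 0.1, the smallest that 3 against 3 arrays allow (0.225 after adjustment over the 9 comparisons of enolases). For NR4A1 CEAA against GFP the exact p was 0.5. Since ENO2 is not shown to be above background, no difference from it is given.

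**Figure D2:**
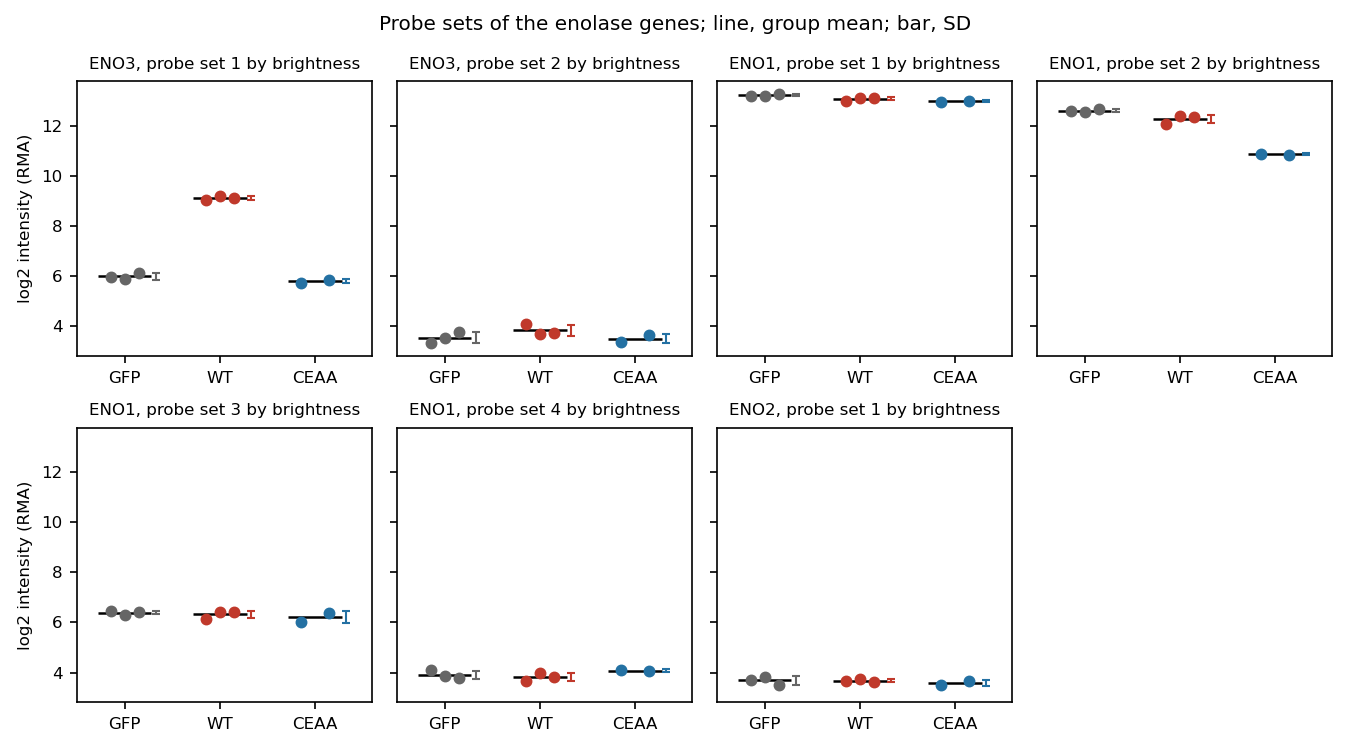
RMA log2 intensity of every probe set that the annotation gives to ENO3, ENO1 or ENO2 alone, numbered by brightness, with 1 point per array, a line at the group mean and a bar of 1 SD beside it. ENO3's brightest set rises to 9.04 to 9.20 with NR4A1 WT, the second set of ENO1 falls to 10.84 and 10.89 with NR4A1 CEAA, and the other sets differ from GFP by under 0.4.

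The second brightest probe set of ENO1 differed from the first. It read 12.60, 12.54 and 12.65 with GFP, 12.07, 12.38 and 12.33 with NR4A1 WT, and 10.89 and 10.84 with NR4A1 CEAA. Both NR4A1 CEAA arrays lay over 1 unit under all others. The log2 fold change was -1.73 for NR4A1 CEAA (limma, adjusted p = 0.00011, taken over every probe set) and -0.33 for NR4A1 WT (limma, adjusted p = 0.0365 likewise). Both are _s_at sets. In the naming of this platform _s_at marks sets whose probes match several transcripts and _x_at sets that may cross-hybridize, and where these probes lie in ENO1 was not known. The size of ENO1's change with NR4A1 CEAA therefore depends on the probe set read.

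Phosphofructokinase commits glucose to glycolysis and works as a tetramer of muscle, liver and platelet subunits. PFKM, the muscle subunit, read 5.15, 5.37 and 5.12 with GFP, 7.34, 7.01 and 7.24 with NR4A1 WT, and 4.997 and 5.16 with NR4A1 CEAA. With GFP and NR4A1 CEAA it lay just above the array medians of 4.755 to 4.802. That is near CD3D, a marker of other cells (5.04 to 5.38), so PFKM is not shown to be above background there. As for ENO3, the 3 NR4A1 WT arrays stood apart, and for PFKM the other groups overlapped. The log2 fold change was 1.99 against GFP (SE 0.10, limma, adjusted p = 9e-06) and 2.12 against NR4A1 CEAA (SE 0.12, limma, adjusted p = 1.3e-05), and -0.13 for NR4A1 CEAA against GFP (95% interval -0.40 to 0.13). PFKM has 1 probe set of its own, so no other set could check it. None of its 7 promoter windows holds the NBRE.

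The platelet subunit gene PFKP went the other way after NR4A1 WT, by -0.27 (limma, adjusted p = 0.0153). This call was lost without GFP replicate 3 (adjusted p = 0.0608) or NR4A1 WT replicate 3 (adjusted p = 0.0514), and the gene's dim second set did not pass. PFKL, the liver subunit, had a log2 fold change of -0.02 with NR4A1 WT and was lower by -0.33 with NR4A1 CEAA (limma, adjusted p = 0.0261). PFKL was followed by a set of the _x_at kind. Its other probe set was lower too, by -0.54, but the call was lost without GFP replicate 1, GFP replicate 2 or NR4A1 CEAA replicate 2 (adjusted p = 0.0698, 0.0779 and 0.18). Thus after NR4A1 WT 1 phosphofructokinase gene rose, 1 fell and 1 did not pass. Of all genes 9.97% were higher and 10.3% lower.

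**Figure D3:**
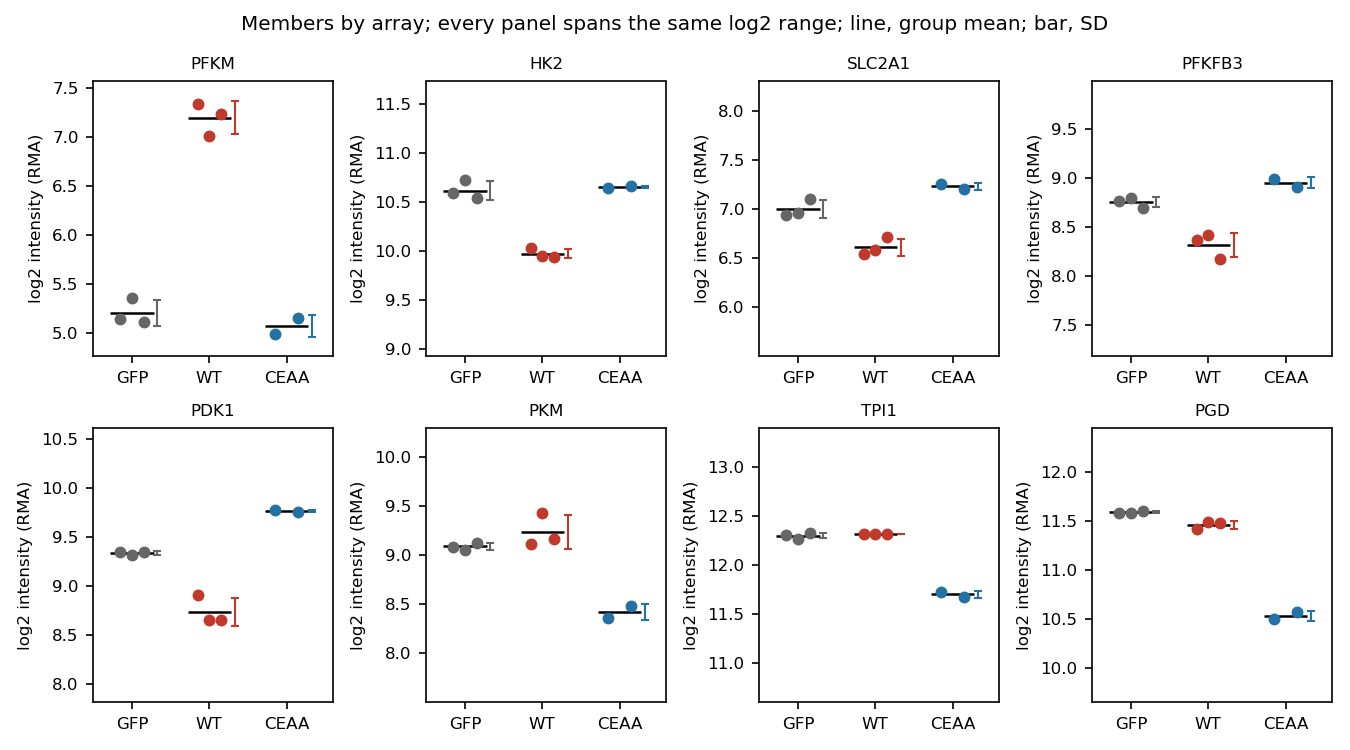
RMA log2 intensity of PFKM, HK2, SLC2A1, PFKFB3, PDK1, PKM, TPI1 and PGD in each array, with a line at the group mean and a bar of 1 SD beside it. The vertical axis spans the same log2 range in every panel but does not start at 0. PFKM is high in the 3 NR4A1 WT arrays, HK2, SLC2A1, PFKFB3 and PDK1 are low there, and PKM, TPI1 and PGD are low in the 2 NR4A1 CEAA arrays.

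After NR4A1 WT 1 of 2 glucose carriers, 1 of 3 hexokinases and 2 of 3 PFKFB genes were lower. So was 1 of 2 pyruvate dehydrogenase kinases, where 10.3% of all genes were lower. The others of these genes did not pass, and groups this small cannot be set against that share. HK2, the inducible hexokinase that traps glucose in the cell, read 10.59, 10.72 and 10.54 with GFP, 10.03, 9.95 and 9.94 with NR4A1 WT, and 10.64 and 10.66 with NR4A1 CEAA. The NR4A1 WT arrays were lowest without overlap, and NR4A1 CEAA overlapped GFP. The log2 fold change against GFP was -0.64 (SE 0.06, limma, adjusted p = 0.0002), and both other probe sets of HK2 were lower as well, by -0.72 and -0.51. HK1, the hexokinase of most tissues, and HK3 did not pass, with log2 fold changes of -0.07 and -0.09.

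SLC2A1 encodes the glucose carrier GLUT1. It read 6.94, 6.96 and 7.11 with GFP, 6.55, 6.58 and 6.71 with NR4A1 WT, and 7.26 and 7.21 with NR4A1 CEAA. The order of the groups was NR4A1 WT, GFP, NR4A1 CEAA, without overlap. It was lower with NR4A1 WT by -0.39 (SE 0.07, limma, adjusted p = 0.0047), while 0.23 with NR4A1 CEAA did not pass (limma, adjusted p = 0.0721). The direct difference was -0.62 (limma, adjusted p = 0.00052). Its other set lay at 3.80 to 4.16, under the array medians, and did not pass in any comparison.

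PFKFB3 makes the sugar bisphosphate that activates phosphofructokinase. It read 8.77, 8.80 and 8.70 with GFP, 8.37, 8.42 and 8.18 with NR4A1 WT, and 8.999 and 8.92 with NR4A1 CEAA. Again NR4A1 WT was lowest and NR4A1 CEAA highest without overlap. PFKFB3's log2 fold change was -0.43 for NR4A1 WT (SE 0.07, limma, adjusted p = 0.0036), 0.20 for NR4A1 CEAA (limma, adjusted p = 0.126), and -0.64 between the NR4A1 forms (limma, adjusted p = 0.0006). Its relative PFKFB4 was lower by -0.24 with NR4A1 WT (limma, adjusted p = 0.0268), a call that was lost without GFP replicate 2 or 3 or NR4A1 WT replicate 1 or 2 (adjusted p = 0.061 to 0.0831), and its dim second set read 0.08. PFKFB2 did not pass with either form.

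PDK1, the pyruvate dehydrogenase kinase that keeps pyruvate out of the citric acid cycle, read 9.35, 9.31 and 9.34 with GFP, 8.90, 8.65 and 8.65 with NR4A1 WT, and 9.77 and 9.75 with NR4A1 CEAA. The groups were fully separated. It fell by 0.60 on the log2 scale with NR4A1 WT (SE 0.07, limma, adjusted p = 0.00078) and rose by 0.43 with NR4A1 CEAA (SE 0.08, limma, adjusted p = 0.0102). The rise was lost when either NR4A1 CEAA array was left out (adjusted p = 0.0757 and 0.06). The direct difference of -1.03 (SE 0.08, limma, adjusted p = 6.9e-05) was a 2.04-fold change. Of its 2 other, dimmer probe sets, neither passed against GFP, and 1 of them was lower with NR4A1 WT than with NR4A1 CEAA by -0.44 (limma, adjusted p = 0.0075 when adjusted over every probe set). PDK3, a second kinase of this family, did not pass in any comparison.

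Set beside these genes is MYC, a transcription factor known to act on many glycolytic genes. It read 11.52, 11.59 and 11.55 with GFP, 10.24, 10.23 and 10.18 with NR4A1 WT, and 12.11 and 12.14 with NR4A1 CEAA. Its log2 fold changes were -1.33 for NR4A1 WT (limma, adjusted p = 1.7e-06) and 0.57 for NR4A1 CEAA (limma, adjusted p = 0.00085), each without overlap between groups. SLC2A1, PFKFB3, PDK1, RPE and RPIA had the same order of groups as MYC without overlap, and ENO3 and GAPDH had the opposite order without overlap. The remaining members, HK2 among them, had neither order without overlap. With NR4A1 WT against GFP, RPE and RPIA did not pass (limma, adjusted p = 0.0703 and 0.276). The share of all genes with either order was not counted, and MYC's part in these changes was not tested.

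MYC with its partner MAX is known to bind the E-box CACGTG, whose letters are the same on both strands. Of all genes with RefSeq windows 8.77% have it in one, and of the 30 members with windows 6 do, namely HK2, PFKFB3, LDHA, GAPDH, ALDOA and ALDOC. By window, 7.26% of all 35116 hold it, beside 6 of the 53 windows of members. GAPDH, ALDOA and ALDOC did not pass with NR4A1 WT and were lower with NR4A1 CEAA (-0.39, -0.39 and -0.56), where MYC was higher. HK2, PFKFB3 and LDHA did not pass with NR4A1 CEAA. The E-boxes of HK2, PFKFB3 and LDHA are shown, because HK2 and PFKFB3 fell with NR4A1 WT and LDHA did not pass. Each has up to 20 bases on each side and the E-box in capitals (GRCh38.p14, plus strand). HK2's lie at chr2:74834956-74835001 and chr2:74835001-74835046, PFKFB3's at chr10:6202804-6202849, and LDHA's at chr11:18394358-18394403 and chr11:18394456-18394501.
HK2, first: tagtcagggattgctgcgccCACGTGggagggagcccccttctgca
HK2, second: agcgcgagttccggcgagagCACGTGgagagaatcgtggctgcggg
PFKFB3: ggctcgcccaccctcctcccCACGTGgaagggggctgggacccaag
LDHA, first: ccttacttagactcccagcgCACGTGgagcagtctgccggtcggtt
LDHA, second: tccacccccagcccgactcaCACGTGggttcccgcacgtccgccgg
SLC2A1 and PDK1, which also fell with NR4A1 WT, hold no E-box in their windows. The ETS core GGAAGT, also searched on both strands (ACTTCC), lies in windows of 26.6% of all genes and of 7 of the 30 members, ENO1, GPI, HK1, HK3, PFKP, PGAM1 and RPE.

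LDHA and LDHB, which exchange pyruvate and lactate, did not pass the test in any comparison. Their log2 fold changes were -0.11 and -0.01 with NR4A1 WT and -0.02 and -0.01 with NR4A1 CEAA. For LDHB the 95% interval was -0.12 to 0.09 with NR4A1 WT and -0.12 to 0.11 with NR4A1 CEAA.

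Of the 6 genes from aldolase to phosphoglycerate mutase, 4 were lower with NR4A1 CEAA, where 12.1% of all genes were, and 0 passed with NR4A1 WT. Among genes with a mean of at least 10 the share lower with NR4A1 CEAA was 26.3%, and 6 genes are too few to set against either share. TPI1, which interconverts the triose phosphates, read 12.31, 12.27 and 12.33 with GFP, 12.32 in all 3 NR4A1 WT arrays, and 11.73 and 11.68 with NR4A1 CEAA. The NR4A1 CEAA arrays were thus the lowest, by more than 0.5. The log2 fold change was -0.60 for NR4A1 CEAA against GFP (SE 0.05, limma, adjusted p = 0.00065) and 0.62 for NR4A1 WT against NR4A1 CEAA (limma, adjusted p = 8.4e-05). A second bright set of TPI1, of the _x_at kind, was lower as well, by -0.44, and a dim last one did not pass.

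GAPDH, the dehydrogenase of the same triose phosphates and a common reference gene, read 13.90, 13.92 and 13.93 with GFP, 14.01, 14.06 and 14.06 with NR4A1 WT, and 13.55 and 13.51 with NR4A1 CEAA. No groups overlapped, although 0.13 with NR4A1 WT did not pass (limma, adjusted p = 0.0956). For NR4A1 CEAA the log2 fold change was -0.39 (SE 0.05, limma, adjusted p = 0.0026), and both other sets of GAPDH were lower, by -0.37 and -0.49. ALDOA, the main aldolase, was lower by -0.39 (limma, adjusted p = 0.0039), and its 2 other sets by -0.44 and -0.37. Every set of GAPDH and ALDOA is of the _x_at kind and so may cross-hybridize, which limits their use as a check on each other.

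ALDOC, a second aldolase, read 7.96, 7.93 and 8.003 with GFP, 7.94, 7.87 and 7.90 with NR4A1 WT, and 7.42 and 7.39 with NR4A1 CEAA. The NR4A1 CEAA arrays lay under all others, and the other groups overlapped. It was lower with NR4A1 CEAA by -0.56 (SE 0.05, limma, adjusted p = 0.00092). GPI, which turns glucose phosphate into fructose phosphate, was lower by -0.43 (limma, adjusted p = 0.0019). Each has 1 probe set of its own.

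PGK1, the first ATP-yielding enzyme of the pathway, did not pass by the set followed (log2 fold change 0.07 with NR4A1 CEAA) but differed between its sets. The second brightest, like the first an _s_at set, read 12.49, 12.43 and 12.48 with GFP, 12.40, 12.48 and 12.54 with NR4A1 WT, and 11.57 and 11.53 with NR4A1 CEAA. The NR4A1 CEAA arrays were low and the other groups overlapped, with a log2 fold change of -0.92 against GFP (limma, adjusted p = 0.00025 when adjusted over every probe set). Its 4 other sets did not pass against GFP. PGAM1, the phosphoglycerate mutase, did not pass in any comparison.

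PKM, the pyruvate kinase of most tissues, closed the trunk in the same direction. It read 9.09, 9.06 and 9.13 with GFP, 9.12, 9.44 and 9.17 with NR4A1 WT, and 8.37 and 8.48 with NR4A1 CEAA. The NR4A1 CEAA arrays were lowest without overlap. PKM's log2 fold change was -0.67 against GFP (SE 0.10, limma, adjusted p = 0.0035) and 0.82 for NR4A1 WT against NR4A1 CEAA (limma, adjusted p = 0.00043). Its dimmer second set did not pass (-0.10 with NR4A1 CEAA).

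SLC2A3, the gene of the glucose carrier GLUT3, read 6.91, 6.83 and 6.61 with GFP, 7.02, 6.87 and 6.88 with NR4A1 WT, and 6.34 and 6.43 with NR4A1 CEAA. Again only the NR4A1 CEAA arrays stood apart, below both other groups. It was lower with NR4A1 CEAA by -0.40 (limma, adjusted p = 0.025) by a set of the _x_at kind. Its 2 other sets, of the _s_at kind, were lower by -0.52 and -0.50. The call was lost without GFP replicate 1 or 2 or either NR4A1 CEAA array (adjusted p = 0.0704 to 0.158). The carrier transcripts thus differed, with SLC2A1 lower after NR4A1 WT and SLC2A3 lower after NR4A1 CEAA. Rank Product called neither of these (q = 0.261 and 0.304), and glucose uptake was not measured.

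**Figure D4:**
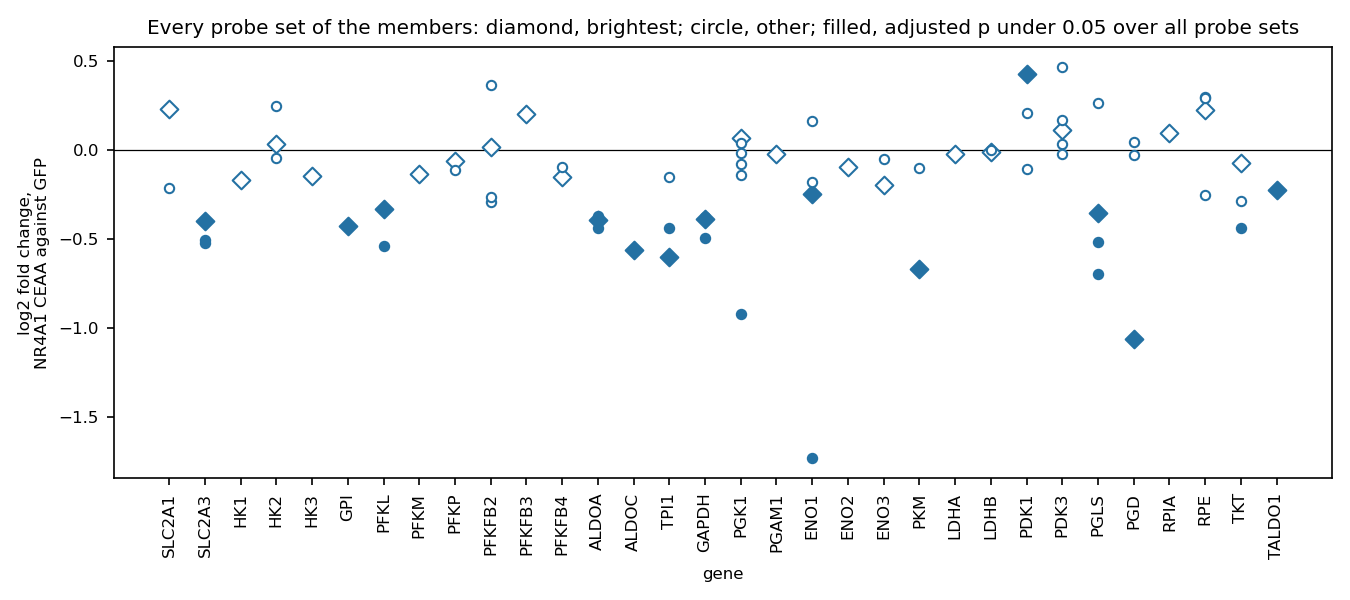
Log2 fold change for NR4A1 CEAA against GFP of every probe set given to 1 of the 32 genes alone, with the brightest set of a gene as a diamond and the others as circles. Marks are filled where limma's p, adjusted over every probe set, was under 0.05, so that RPE, with 0.0503 there, is open. Sets of SLC2A3, ALDOA and GAPDH lie together, while ENO1 reaches -1.73 and PGK1 -0.92 in 1 set each.

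In the pentose phosphate pathway 0 of 6 members passed with NR4A1 WT, and 3 were lower and 1 higher with NR4A1 CEAA, where 12.1% and 7.14% of all genes were. Among genes with a mean of at least 10 these shares were 26.3% and 12.7%, and 6 genes are too few to set against them. With an intensity trend in limma PGD (-0.13), RPE (-0.16) and TKT (-0.12) were lower with NR4A1 WT as well. PGD, whose enzyme makes NADPH and ribulose phosphate in the oxidative branch, read 11.59, 11.59 and 11.61 with GFP, 11.42, 11.50 and 11.48 with NR4A1 WT, and 10.50 and 10.57 with NR4A1 CEAA. Both NR4A1 CEAA arrays lay about 1 unit under GFP. This was the largest fall among the sets followed, -1.06 (SE 0.05, limma, adjusted p = 0.00018) or 2.08-fold, and NR4A1 WT exceeded NR4A1 CEAA by 0.93 (limma, adjusted p = 1.9e-05). PGD's 2 other sets averaged 4.41 each, under the array medians, and did not pass.

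PGLS, the lactonase just before PGD, was lower with NR4A1 CEAA by -0.35 (limma, adjusted p = 0.0038), as were 2 of its 3 other sets. TALDO1, the transaldolase of the reversible branch, was lower by -0.23 (limma, adjusted p = 0.0232), and this was lost without any 1 of the 3 GFP or 2 NR4A1 CEAA arrays (adjusted p = 0.0568 to 0.138). RPE, the epimerase of ribulose phosphate, was higher by 0.23 (limma, adjusted p = 0.0294), and this was lost without GFP replicate 2 or 3 or either NR4A1 CEAA array (adjusted p = 0.081 to 0.151). RPIA, which makes ribose phosphate, did not pass against GFP. The transketolase gene TKT did not pass by the set followed (-0.07), although the next set, of the _x_at kind, was lower by -0.44 with NR4A1 CEAA (limma, adjusted p = 0.0051 when adjusted over every probe set).

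**Figure D5:**
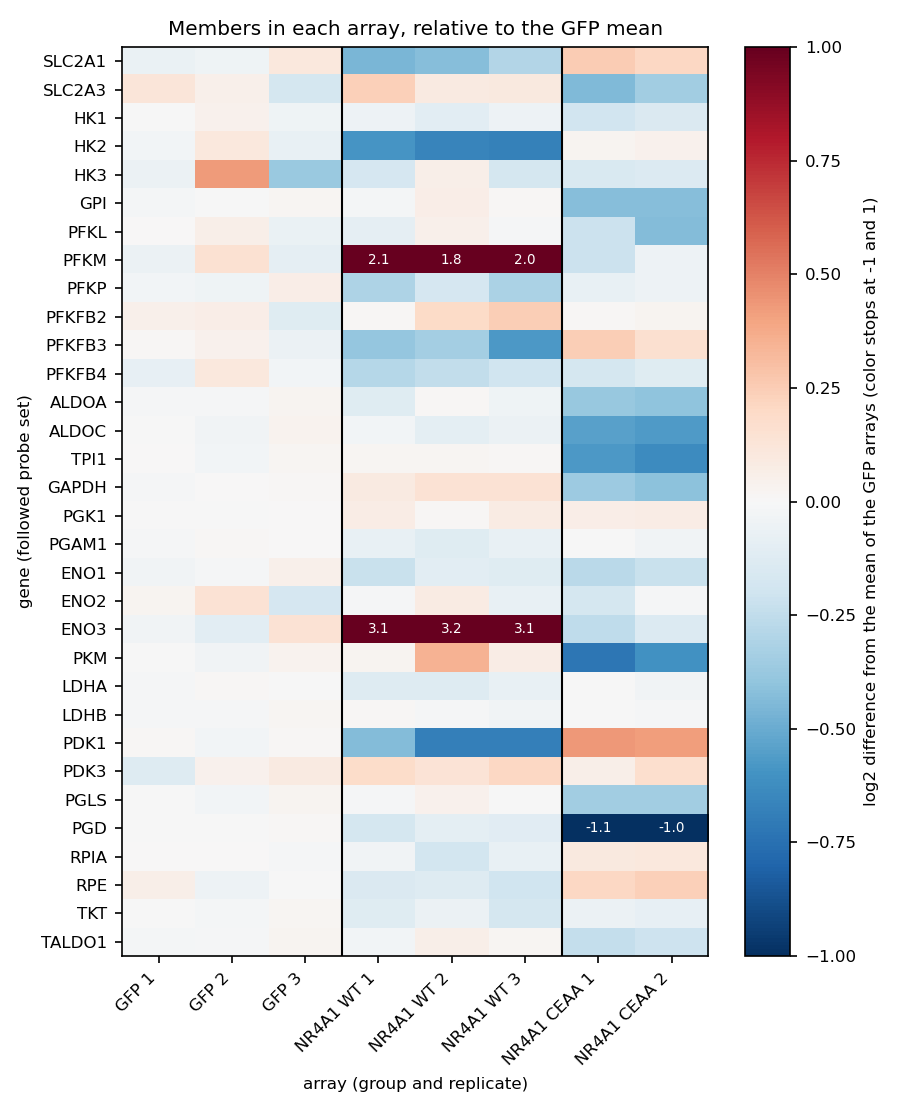
Log2 difference of each of the 32 genes (rows) in each of the 8 arrays (columns) from the mean of the 3 GFP arrays, red for higher and blue for lower. The color stops at -1 and 1, and cells beyond carry their value. ENO3 and PFKM are red in the 3 NR4A1 WT arrays, and the rows from ALDOA to GAPDH, PKM and PGD are blue in the 2 NR4A1 CEAA arrays.

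Compared directly, the forms of NR4A1 differed in most of these genes. With NR4A1 WT 13 of 32 members were higher than with NR4A1 CEAA, where 18.0% of all genes were, and 6 were lower, where 13.4% were. The 13 were ENO3, PFKM, PGD, PKM, TPI1, SLC2A3, GAPDH, ALDOC, GPI, PGLS, ALDOA, PFKL and TALDO1. The 6 were PDK1, HK2, PFKFB3, SLC2A1, RPE and RPIA. The median log2 fold change was 0.09 over the members and 0.03 over all genes. Among genes with a mean of at least 10, 34.0% were higher and 23.5% lower, beside 7 and 2 of the 17 members that bright. The call of RPIA (log2 fold change -0.20, limma, adjusted p = 0.0376) was lost without any 1 array other than NR4A1 WT replicate 1 (adjusted p = 0.0605 to 0.145). PFKL (0.31) lost its call without NR4A1 WT replicate 2 or NR4A1 CEAA replicate 2 (adjusted p = 0.0547 and 0.161), and TALDO1 (0.25) without NR4A1 CEAA replicate 1 (adjusted p = 0.0684). PFKP, at -0.20, just missed the threshold (limma, adjusted p = 0.0504). Rank Product called 3 higher (ENO3, PFKM and PGD; 1.84% of all genes) and 1 lower (PDK1; 0.941% of all genes).

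Of 35 tissue-restricted or minor isoenzymes and side enzymes, 29 were measured. After NR4A1 WT 3 were higher and 4 lower (10.3% and 13.8% of 29, beside 9.97% and 10.3% of all genes). After NR4A1 CEAA 0 were higher and 3 lower (0% and 10.3%, beside 7.14% and 12.1% of all genes). BPGM, which makes the bisphosphoglycerate that loosens oxygen from hemoglobin, averaged 6.82 ± 0.09 in the GFP arrays (SD, n = 3) and 8.27 ± 0.05 in those with NR4A1 WT (SD, n = 3), a log2 fold change of 1.45 (limma, adjusted p = 3.7e-06). TIGAR, a phosphatase that lowers the activator of phosphofructokinase, rose by 0.83 (limma, adjusted p = 5e-05). PGAM5, a mitochondrial phosphatase, fell by 0.50 with NR4A1 WT (limma, adjusted p = 0.0013) and was also lower with NR4A1 CEAA, by -0.43 (limma, adjusted p = 0.0072).

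Of 14 genes of mitochondrial pyruvate entry and use and of malic enzymes, 13 were measured. Among them 4 were higher and 0 lower after NR4A1 WT, and 4 higher and 2 lower after NR4A1 CEAA. As shares of 13 these were 30.8% higher with either form, 0% lower with NR4A1 WT and 15.4% lower with NR4A1 CEAA. Of all genes 9.97% were higher and 10.3% lower with NR4A1 WT, and 7.14% higher and 12.1% lower with NR4A1 CEAA. MPC2, a subunit of the mitochondrial pyruvate carrier, averaged 10.76 ± 0.04 in the GFP arrays (SD, n = 3) and 11.58 ± 0.04 in those with NR4A1 WT (SD, n = 3), a difference of 0.82 (limma, adjusted p = 2.1e-05), and its other set was higher too. With NR4A1 CEAA it was lower, by -0.20 (limma, adjusted p = 0.0388). PDP1, the phosphatase that turns pyruvate dehydrogenase on and so counters PDK1, was higher by 0.36 with NR4A1 WT (limma, adjusted p = 0.0018) and by 0.34 with NR4A1 CEAA (limma, adjusted p = 0.0063). PDHX, a structural subunit of that complex, was higher by 0.20 and 0.34 (limma, adjusted p = 0.0269 and 0.0065).

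Of 33 genes of gluconeogenesis, the glycerol phosphate and aspartate shuttles and the hexose phosphate branches, 28 were measured. After NR4A1 WT 6 were higher and 7 lower (21.4% and 25.0% of 28, beside 9.97% and 10.3% of all genes), and after NR4A1 CEAA 2 were higher and 4 lower (7.14% and 14.3%, beside 7.14% and 12.1%). GBE1, the branching enzyme of glycogen, rose by 0.75 with NR4A1 WT (limma, adjusted p = 1.9e-05), and GOT1, the cytosolic aspartate transaminase, by 0.69 (limma, adjusted p = 4.8e-05). GOT1 was lower with NR4A1 CEAA, by -0.40 (limma, adjusted p = 0.0029). PYGB, a glycogen phosphorylase, fell by 0.49 with NR4A1 WT (limma, adjusted p = 0.00022).

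Of 18 transcription factors known to act on glycolytic genes, 16 were measured. After NR4A1 WT 1 was higher and 5 lower (6.25% and 31.2% of 16, beside 9.97% and 10.3% of all genes), and after NR4A1 CEAA 1 was higher and 2 lower (6.25% and 12.5%, beside 7.14% and 12.1%). Besides MYC, the lower ones included FOXK2, a forkhead factor (-0.42, limma, adjusted p = 0.00048), and MXI1, a MAX partner that opposes MYC (-0.37, limma, adjusted p = 0.0016). Neither passed after NR4A1 CEAA. Over the factors the median log2 fold change was -0.14 with NR4A1 WT, beside 0.00 over all genes, and -0.01 with NR4A1 CEAA, beside -0.03.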

How the data were processed

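The 8 arrays are human genome U133 Plus 2.0. The authors deposited log2 intensities made by RMA in RMA Express (version not given in the sources used here), which corrects background, normalizes arrays by quantiles and summarizes probes, so broad shifts common to an array are removed. Of 54613 probe sets, 41091 had 1 symbol in GEO's platform annotation, 1801 several and 11721 none. The 32 members matched the RefSeq gene table by identifier. No detection calls were at hand.

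All groups entered 1 limma 3.58.1 fit in R 4.3.3 (no covariates, 8.04 degrees of freedom per gene), with Benjamini-Hochberg adjustment over 19775 genes. The script was tested on simulated data. Rank Product used 100 permutations. The number of arrays limits the precision.

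Members, lists and tests were chosen with earlier results of these data known. Values per array are given for the enolases and for members past the test with an absolute log2 fold change of at least 0.5, and at most 3 genes per further list are named, by size of change with NR4A1 WT. Alternatives were Rank Product, an intensity trend, array weights, only 2 groups, a filter on dim sets, centering, quantile normalization again, a replicate block, all, averaged or second sets, a threshold of 0.01, and leaving out each array. The count among bright genes was added after seeing the data.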

Additional observations from a re-analysis of the deposited data

How the results depend on the processing

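Counts of members moved as follows. Rank Product gave 2 lower for NR4A1 WT against GFP, 0 higher and 3 lower for NR4A1 CEAA against GFP, and 3 higher and 1 lower for NR4A1 WT against NR4A1 CEAA. An intensity trend gave 12 lower for NR4A1 WT. The 2 members higher with NR4A1 CEAA became 1 with centered arrays or all probe sets tested, and 0 with the mean of a gene's probe sets or an adjusted p under 0.01. With the second brightest probe set there were 1 higher and 3 lower for NR4A1 WT, 0 higher for NR4A1 CEAA and 3 lower for NR4A1 WT against NR4A1 CEAA, where genes with 1 set kept it. With those sets, the signs turned for PFKFB4 (0.0811, NR4A1 WT), PGK1 (-0.92), PDK1 (-0.11) and PGD (0.0455) with NR4A1 CEAA, SLC2A1 (0.0509), PGK1 (0.93) and TKT (0.25) between the NR4A1 forms, and for ENO3 minus ENO1 between them (-1.06), where the second set of ENO3 lies under the array medians and so is not shown to carry ENO3 signal. The second sets of PFKFB4, PGD and SLC2A1 lie under the array medians too and are likewise not shown to carry signal of these genes. The cause of the turns was not tested. With 1 array left out, NR4A1 WT gave 2 higher and 4 to 6 lower, NR4A1 CEAA 0 to 2 higher and 8 to 12 lower, and the direct comparison 12 to 13 higher and 5 to 6 lower. Of single members' calls, Rank Product lost 30, the second sets 11, a threshold of 0.01 10, averaged sets 4, and only 2 groups, centering, quantile normalization again or all probe sets 2 each, whereas the intensity trend gained 11, the dim filter 7 and array weights 3. ENO3, PFKM, HK2, PFKFB3, SLC2A1 and PDK1 with NR4A1 WT kept their calls without any 1 array, with the lone array of a group of 2 assumed to vary like the others.

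The replicate numbers did not pair the arrays (correlations of deviations -0.04 to 0.09 for the same number, -0.09 to 0.09 for others). With the number as a block, PFKL (adjusted p = 0.0703), ENO1 (0.0662), RPE (0.0932) and TALDO1 (0.0703) with NR4A1 CEAA and PFKL (0.0526) and RPIA (0.0814) in the direct comparison lost their calls in limma, and SLC2A1 gained one with NR4A1 CEAA (adjusted p = 0.0372). Probe sets under the median of their array limit what can be read of ENO2 and HK3.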
